A study of Mus musculus with 12 samples.

Results

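The interferon-stimulated genes *Ifit1*, *Ifit1bl1*, *Ifit2*, *Ifit3*, *Ifit3b*, *Isg15*, *Irf7*, *Mx1* and *Usp18* were examined in mouse sciatic nerve, 9 of the 43432 genes of the count table. They were matched by symbol and joined by Ensembl identifier to the read counts, and all 9 were among the 17257 genes with enough reads to be tested. *Ifit1bl1* was selected on its measured level, because it was higher in *Mtmr2* KO than in WT control nerves in these same libraries. The other 8 were set beside it as known interferon-stimulated genes, to ask whether *Ifit1bl1* moved with them. The contrast between *Mtmr2* KO and WT control therefore describes these genes and carries no test of them.

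Type I interferons are secreted proteins that bind a receptor made of the IFNAR subunits and activate the kinases JAK1 and TYK2. These phosphorylate STAT proteins, which enter the nucleus with IRF9 and bind the interferon-stimulated response element (ISRE) in promoters of many antiviral genes. A low basal activity of this pathway is present in most tissues without infection.

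RNA was sequenced from 3 groups of 4 mice at 1 month of age, with 1 library of 1 sciatic nerve per mouse and 3 males and 1 female in each group. WT control mice carried intact *Mtmr2* and *Mtmr2* KO mice were null for it, a model of the demyelinating neuropathy CMT4B1 made on a 129/SvPas background. The labels give no treatment for either of these groups, whereas the text of the study calls the *Mtmr2* KO group of the niacin comparison vehicle treated. The third group, called niacin here, were *Mtmr2* KO mice that received intraperitoneal niacin (120 mg/kg) between days 10 and 21 and then Niacin-SR, a slow-release form, by gavage until day 30. Which part of *Mtmr2* the null allele lacks was not stated in these sources.

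Libraries held 20763951 to 33191106 counts. *Mtmr2* itself, the phosphatase gene that was inactivated, stood at 128 to 161 CPM (counts scaled to the TMM-adjusted size of each library) in the 4 WT control libraries and at 66.7 to 73.4 CPM in the 4 niacin libraries. It stood at 69.4, 71.6 and 84.6 CPM in 3 of the *Mtmr2* KO libraries and at 143 CPM in the library labelled *Mtmr2* KO replicate 4503, which is within the WT control range. For the 9 genes, contrasts with *Mtmr2* KO are therefore also given without replicate 4503. The 8 Schwann cell markers were abundant, summing to between 62060 and 117500 CPM in every library.

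Of the 9 genes, 5 lie together on chromosome 19 in the *Ifit* cluster (GRCm38, GENCODE release 21). *Ifit2* (chr19:34550694-34576419), *Ifit3* (chr19:34583531-34588731), *Ifit3b* (chr19:34607970-34613401) and *Ifit1* (chr19:34640871-34650009) are on the plus strand, and *Ifit1bl1* (chr19:34592891-34601956) is on the minus strand between *Ifit3* and *Ifit3b*. The sixth gene of the cluster, *Ifit1bl2* (chr19:34617049-34640743, minus strand), is not one of the 9. *Isg15* (chr4:156199424-156200818, minus strand), *Irf7* (chr7:141262706-141266481, minus strand), *Mx1* (chr16:97447035-97462907, minus strand) and *Usp18* (chr6:121245906-121270917, plus strand) lie elsewhere.

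The promoters bear on whether *Ifit1bl1* carries the element that its neighbours share. RefSeq promoters of GRCm38.p6, 250 bases before to 50 after each annotated start, were found for 7 of the 9 genes, as 9 promoters. The ISRE core GAAANNGAAA was searched on both strands, and it was present in 3.44% of 32851 promoters of all genes and in 6 of these 9, which belonged to 5 genes. *Ifit1bl1* held 1 match in each of its 2 annotated promoters, *Ifit1*, *Ifit3* and *Ifit3b* held 2 and *Isg15* held 3 overlapping matches. None was found in the promoter of *Irf7* or in the 2 of *Ifit2*. A match is a description of letters and not evidence of binding. The stretches around the matches are printed on the strand of the gene, with the matches in capitals and 20 bases on either side.
Ifit1bl1, chr19:34602043-34602092, minus strand: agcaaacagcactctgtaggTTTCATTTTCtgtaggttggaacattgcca
Ifit1, chr19:34640765-34640833, plus strand: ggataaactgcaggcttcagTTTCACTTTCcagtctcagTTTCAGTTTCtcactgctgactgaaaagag
Ifit3, chr19:34583353-34583436, plus strand: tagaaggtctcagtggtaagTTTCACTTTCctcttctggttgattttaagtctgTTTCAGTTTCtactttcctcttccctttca
Isg15, chr4:156200855-156200916, minus strand: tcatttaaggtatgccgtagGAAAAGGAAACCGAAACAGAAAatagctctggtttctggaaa

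The printed match of *Ifit1bl1* began 104 bases before the start of its promoter, and the match in its other annotated promoter began 23 bases before that start. The window of *Ifit3b* (chr19:34607749-34607832) had 0 differences from that of *Ifit3* over 84 bases, and the 2 windows of *Ifit1bl1* differed at 1 of 50 bases. The whole promoter of *Ifit1bl1* at chr19:34601919-34602218, the gene on which the comparison turns, reads as follows on the minus strand.
Ifit1bl1 promoter: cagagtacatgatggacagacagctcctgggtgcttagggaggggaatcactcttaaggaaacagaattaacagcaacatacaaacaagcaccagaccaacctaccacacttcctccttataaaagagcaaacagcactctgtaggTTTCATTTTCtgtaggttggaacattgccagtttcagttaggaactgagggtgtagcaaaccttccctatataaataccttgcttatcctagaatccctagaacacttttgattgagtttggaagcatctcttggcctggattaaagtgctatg

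Per kilobase of exon, *Ifit2* had the highest level of the 9 genes in WT control nerves, at 13.7 ± 0.65 CPM per kb (SD, n = 4), and *Mx1* the lowest, at 0.206 ± 0.053. In between stood *Ifit3* at 9.44, *Isg15* at 5.74, *Ifit3b* at 2.85, *Ifit1* at 2.03, *Irf7* at 1.91, *Ifit1bl1* at 1.43 and *Usp18* at 1.35 CPM per kb. *Ifit2* did not overlap *Ifit3*, and *Usp18* did not overlap *Mx1*. Every other pair of neighbours in this order overlapped over the 4 libraries. *Mx1* rested on 5 to 52 counts per library and *Ifit1bl1* on 73 to 215.

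*Ifit1bl1*, named for its likeness to *Ifit1*, was at 3.52, 3.23, 2.65 and 3.55 CPM in the WT control libraries, at 7.48, 8.01, 5.09 and 5.91 CPM in the *Mtmr2* KO libraries and at 4.45, 4.72, 4.52 and 4.32 CPM in the niacin libraries. The 3 groups did not overlap, and the niacin libraries lay between the other two groups within a narrow band. The mean of *Mtmr2* KO was 2.04-fold that of WT control, a log2 fold change of 1.03 ± 0.18 (SE), and 1.14 without replicate 4503, which was the lowest of its group. Since tissue RNA was measured, fewer cells of a type and less RNA per cell cannot be told apart here or below.

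Niacin nerves had 0.681-fold the *Ifit1bl1* level of *Mtmr2* KO nerves without niacin, a log2 fold change of −0.56 ± 0.18 (−0.66 without replicate 4503). This missed the threshold over all genes (adjusted p = 0.119, edgeR quasi-likelihood test), while the exact permutation test of this gene alone gave its smallest possible two-sided value, p = 0.0286. These *Mtmr2* KO libraries are also the ones in which *Ifit1bl1* was chosen for being high. The niacin level was 1.39-fold that of WT control, a log2 fold change of 0.48 ± 0.18 (edgeR adjusted p = 0.152, exact permutation p = 0.0286). The WT control libraries too belong to the contrast that chose the gene.

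**Figure D1:**
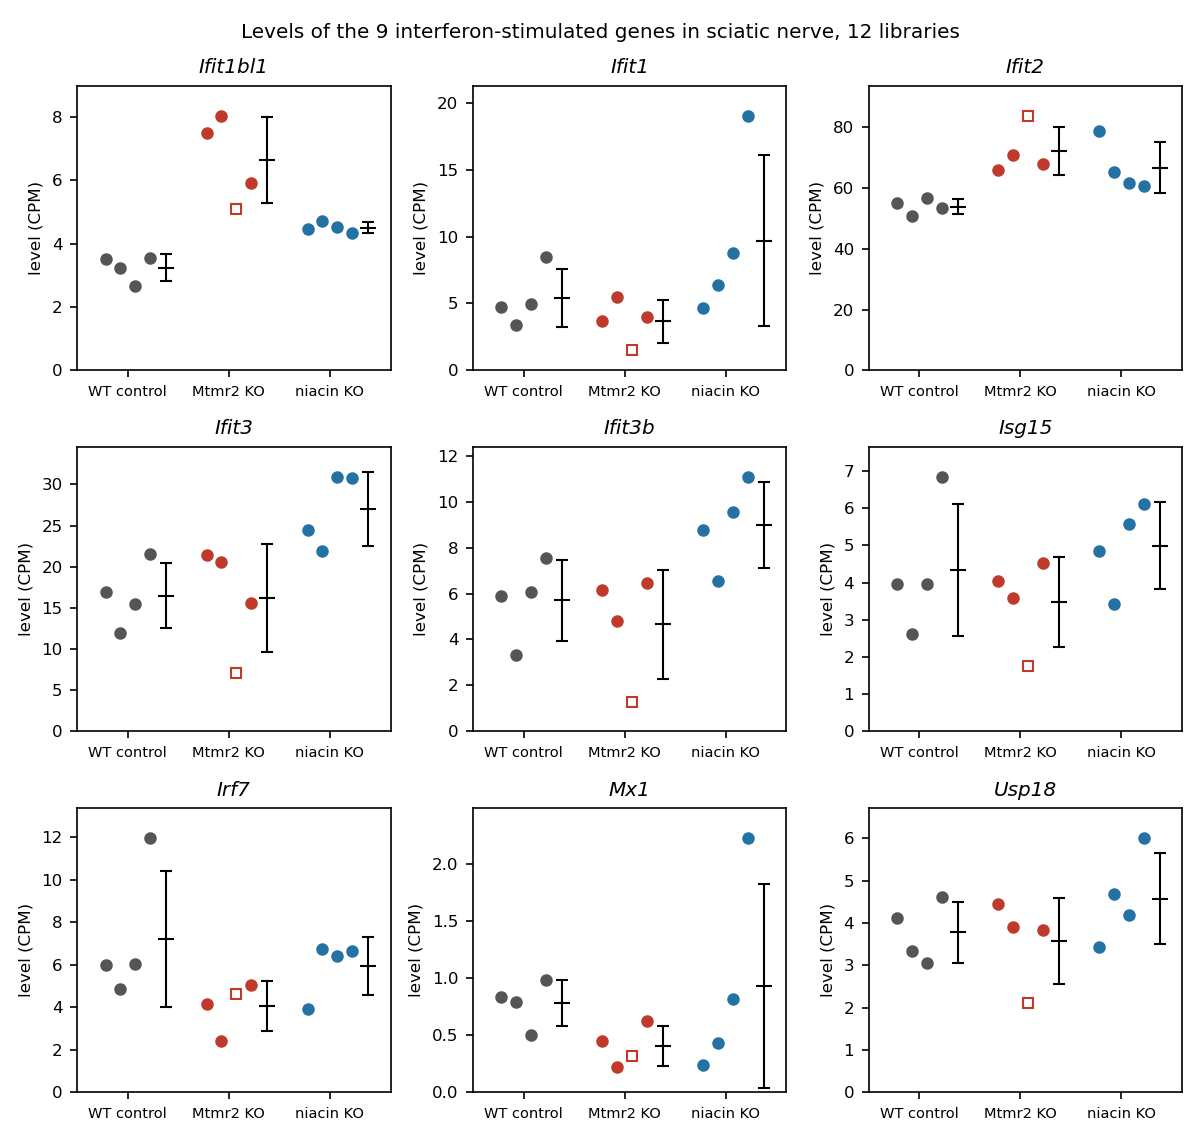
Levels in CPM (y axis, from 0) of the 9 genes in the 4 libraries of each group (x axis; niacin KO stands for niacin-treated *Mtmr2* KO), with the mean and SD as a black bar and the library labelled replicate 4503 as an open square. *Ifit1bl1* separates the 3 groups, while replicate 4503 is the lowest of all 12 libraries for *Ifit1*, *Ifit3*, *Ifit3b*, *Isg15* and *Usp18*.

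Markers of neutrophils were set beside *Ifit1bl1* library by library. The 9 markers summed to 0.58 to 1.5 CPM in WT control, to 1.87 to 19.9 CPM in *Mtmr2* KO and to 1.37 to 12.6 CPM in niacin libraries, and 4 of the 9 were abundant enough to be tested. *Mtmr2* KO replicates 4501 and 4502 had the highest sums of these markers, 19.9 and 18.3 CPM, and the highest *Ifit1bl1* levels, 7.48 and 8.01 CPM. *Mtmr2* KO replicate 4504 had 1.87 CPM of the markers, above every WT control library. Its *Ifit1bl1* level of 5.91 CPM was above every WT control and niacin library. Niacin replicate 4508 had 12.6 CPM of the markers and the lowest *Ifit1bl1* level of its group. None of the 9 markers was at 0 in all libraries, and edgeR called 0 of the 4 tested in any comparison. The part of neutrophils in the level of *Ifit1bl1* was not tested.

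*Ifit2*, which encodes an RNA-binding IFIT protein, was the other gene of the set without overlap between *Mtmr2* KO and WT control. It was at 55.0, 50.7, 56.7 and 53.3 CPM in WT control, at 65.9, 70.9, 83.6 and 67.9 CPM in *Mtmr2* KO and at 78.9, 65.3, 61.7 and 60.8 CPM in niacin libraries. Both *Mtmr2* KO groups lay above WT control and overlapped each other. The log2 fold change was 0.42 ± 0.12 for *Mtmr2* KO against WT control (0.34 without replicate 4503, its highest library), −0.11 ± 0.12 for niacin against *Mtmr2* KO (edgeR adjusted p = 0.621; −0.034 without replicate 4503) and 0.31 ± 0.12 for niacin against WT control (edgeR adjusted p = 0.157).

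*Ifit1*, whose product binds RNA with caps that lack the methylation of the cell's own messages, had another order of groups. It was at 4.76, 3.41, 4.93 and 8.5 CPM in WT control, at 3.72, 5.46, 1.54 and 3.99 CPM in *Mtmr2* KO and at 4.65, 6.37, 8.81 and 19.0 CPM in niacin libraries. All groups overlapped, and niacin replicate 4508 stood apart from its group (SD 6.41 CPM). The niacin mean was 2.66-fold that of *Mtmr2* KO, a log2 fold change of 1.41 ± 0.45 (edgeR adjusted p = 0.116), which became 0.86 without replicate 4508 and 1.15 without replicate 4503.

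*Ifit3* and *Ifit3b*, neighbouring copies on either side of *Ifit1bl1*, shared with *Ifit1* a higher mean in niacin than in *Mtmr2* KO. *Ifit3* was at 16.9, 12, 15.5 and 21.5 CPM in WT control, at 21.4, 20.6, 7.14 and 15.6 CPM in *Mtmr2* KO and at 24.5, 22, 30.9 and 30.8 CPM in niacin libraries. *Ifit3b* was at 5.89, 3.30, 6.06 and 7.54 CPM, at 6.16, 4.79, 1.28 and 6.44 CPM and at 8.76, 6.54, 9.54 and 11.1 CPM in the same order. For both genes every niacin library exceeded every *Mtmr2* KO library, whereas *Mtmr2* KO and WT control overlapped. The log2 fold change under niacin was 0.74 ± 0.28 for *Ifit3* (edgeR adjusted p = 0.170) and 0.95 ± 0.39 for *Ifit3b* (adjusted p = 0.194), and 0.49 and 0.63 without replicate 4503. Of the 75-base words in their transcripts, 41.1% of those of *Ifit3* and 35.7% of those of *Ifit3b* occur in the other gene, so the split of reads between the pair is uncertain. *Ifit1bl1* shared 1.93% of its 75-base words, all with *Ifit1bl2*, and 0 of its 150-base words.

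Along the cluster, *Ifit1bl1*, *Ifit1bl2* and *Ifit2* had a higher mean in *Mtmr2* KO than in WT control and a lower mean in niacin than in *Mtmr2* KO, and *Ifit1*, *Ifit3* and *Ifit3b* the reverse. For *Ifit3* and *Ifit3b* the difference between *Mtmr2* KO and WT control was −0.027 and −0.30 on the log2 scale and became 0.22 and 0.023 without replicate 4503. All 6 genes had a higher mean in niacin than in WT control. *Ifit1bl2*, the only other minus-strand gene of the family, was at 1.66 ± 0.31 CPM in WT control, at 2.5 ± 0.91 CPM in *Mtmr2* KO nerves and at 1.85 ± 0.23 CPM with niacin (SD, n = 4). Its log2 fold changes of 0.58 (edgeR adjusted p = 0.313) and −0.42 (adjusted p = 0.430) had the signs of those of *Ifit1bl1* and did not pass the test, nor did they without replicate 4503 (0.81, adjusted p = 0.128, and −0.66, adjusted p = 0.217). Its *Mtmr2* KO libraries overlapped both other groups only through replicate 4503, at 1.22 CPM. *Mtmr2* KO replicates 4501, 4502 and 4504, at 2.78, 3.36 and 2.64 CPM, lay above the highest WT control (1.945 CPM) and niacin (2.055 CPM) libraries. The genes flanking the cluster, *Lipa* and *Slc16a12*, had log2 fold changes of −0.31 (edgeR adjusted p = 0.402) and −1.51 (adjusted p = 0.114) between *Mtmr2* KO and WT control, and neither was called.

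**Figure D2:**
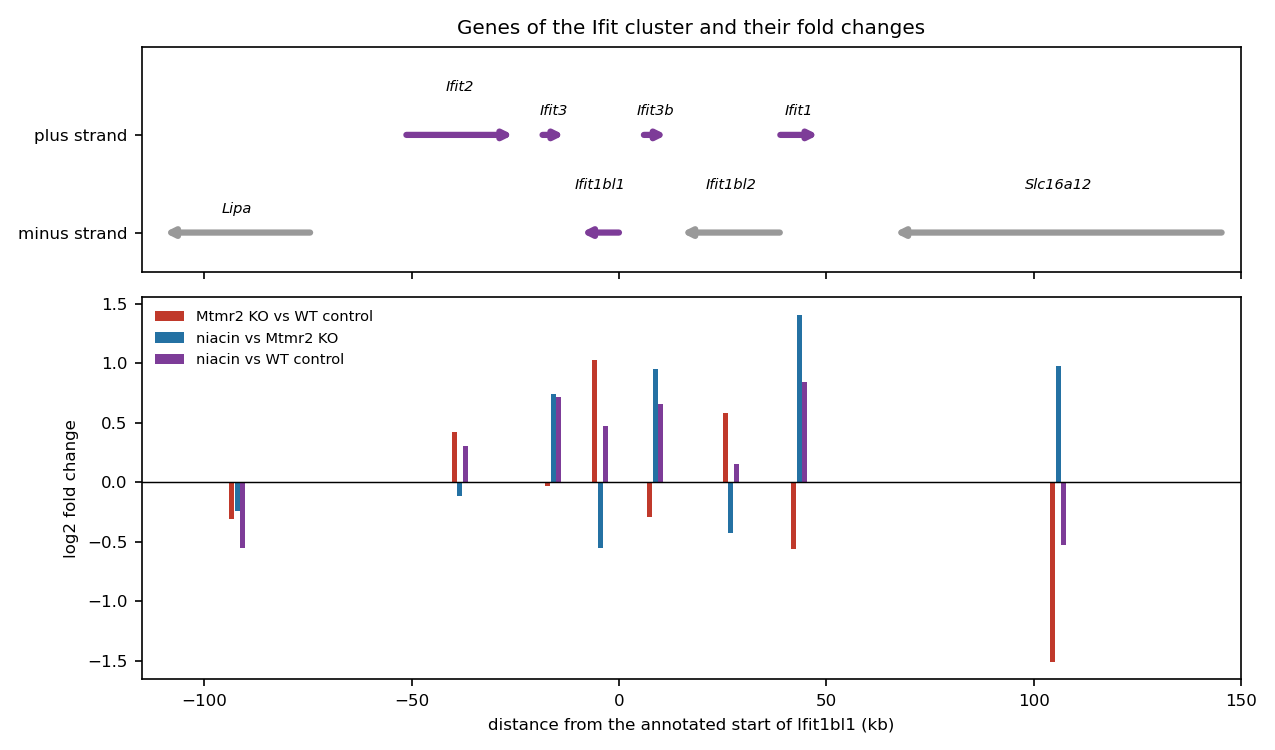
Position of the 6 *Ifit* genes (the 5 members purple) and the flanking genes on the 2 strands, with the x axis giving the distance in kb from the annotated start of *Ifit1bl1*, and beneath them the log2 fold change (y axis) in each of the 3 comparisons. *Ifit1bl1*, *Ifit1bl2* and *Ifit2* have positive bars for *Mtmr2* KO against WT control and negative bars for niacin against *Mtmr2* KO, and *Ifit3*, *Ifit3b* and *Ifit1* the opposite, although the first of these bars turns positive for *Ifit3* and *Ifit3b* without replicate 4503.

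*Isg15* encodes a ubiquitin-like protein that is attached to other proteins during the interferon response, and *Usp18* the protease that removes it and also damps the receptor. *Isg15* was at 3.96, 2.62, 3.95 and 6.82 CPM in WT control, at 4.04, 3.58, 1.76 and 4.52 CPM in *Mtmr2* KO and at 4.84, 3.42, 5.57 and 6.12 CPM in niacin libraries. *Usp18* was at 4.11, 3.34, 3.05 and 4.61 CPM, at 4.45, 3.89, 2.11 and 3.84 CPM and at 3.43, 4.68, 4.2 and 5.99 CPM. All groups overlapped for both genes. Niacin against *Mtmr2* KO gave log2 fold changes of 0.53 ± 0.32 for *Isg15* (edgeR adjusted p = 0.381) and 0.36 ± 0.25 for *Usp18* (adjusted p = 0.443), which became 0.30 and 0.17 without replicate 4503. *Mtmr2* KO against WT control gave −0.33 for *Isg15* and −0.081 for *Usp18*, and −0.10 and 0.11 without that library.

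*Irf7*, the transcription factor that amplifies interferon production, and *Mx1*, a GTPase that blocks influenza virus, were the 2 genes with the most negative fold changes in *Mtmr2* KO. *Irf7* was at 6.0, 4.85, 6.06 and 11.9 CPM in WT control, at 4.14, 2.42, 4.64 and 5.05 CPM in *Mtmr2* KO and at 3.91, 6.75, 6.43 and 6.64 CPM in niacin libraries. *Mx1* was at 0.84, 0.79, 0.51 and 0.99 CPM, at 0.45, 0.22, 0.32 and 0.62 CPM and at 0.24, 0.43, 0.82 and 2.23 CPM. The groups overlapped for both. *Mtmr2* KO against WT control gave −0.83 ± 0.30 for *Irf7* and −0.95 ± 0.57 for *Mx1* on the log2 scale, and −0.90 and −0.85 without replicate 4503. Without WT control replicate 4500, the highest of its group, the value of *Irf7* was −0.47. Niacin against *Mtmr2* KO gave 0.55 ± 0.30 (edgeR adjusted p = 0.333) and 1.21 ± 0.57 (adjusted p = 0.254), or 0.62 and 1.11 without replicate 4503. The value of *Mx1* was 0.32 without niacin replicate 4508 and 0.57 in limma-voom.

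Across the set, *Mtmr2* KO had a higher mean than WT control for 2 of the 9 genes and a lower mean for 7, with a median log2 fold change of −0.30 against 0.033 over all genes tested. Without replicate 4503 the split was 5 higher and 4 lower with a median of 0.023, so the excess of lower means rested on that library. The threshold was passed by 1 of the 9, *Ifit1bl1*, beside 0.267% of all genes (0.0464% higher and 0.22% lower), and groups did not overlap for 2 of the 9 beside 9.33% of all genes. The call of *Ifit1bl1* was lost when any single WT control library or niacin replicate 4506, 4507 or 4508 was left out of the edgeR fit. That contrast chose *Ifit1bl1*, and nothing is read from these shares.

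Niacin nerves had a higher mean than *Mtmr2* KO nerves for 7 of the 9 genes, all but *Ifit1bl1* and *Ifit2*, and the median log2 fold change was 0.55 against −0.035 over all genes. The direction of all 9 was the same without replicate 4503 (median 0.49). The edgeR test called 0 of the 9, and it called 1.43% of all genes, of which 0.695% were higher and 0.73% lower. An unadjusted p under 0.05 was reached by 4 of the 9 and by 20.1% of all genes. Groups did not overlap for 3 of the 9, *Ifit3* and *Ifit3b* higher and *Ifit1bl1* lower, beside 6.98% of all genes. *Ifit1bl1* was chosen for being high in these *Mtmr2* KO libraries, so nothing is read from its place in these counts. *Ifit1* passed in DESeq2 over all 12 libraries (adjusted p = 0.0229, with 6.01% of all genes called), in DESeq2 on the 2 groups (adjusted p = 0.0482, 2.5%) and in edgeR without a filter (adjusted p = 0.0409, 1.69%). Without *Mtmr2* KO replicate 4502, where 23.6% of all genes passed, edgeR called *Ifit1* (adjusted p = 0.0282) and *Ifit3* (adjusted p = 0.0487).

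Niacin against WT control gave a higher mean for 8 of the 9 genes, all but *Irf7*, with a median log2 fold change of 0.31 against 0.019 over all genes. The sign turned for *Irf7* without WT control replicate 4500 and for *Mx1* without niacin replicate 4508. In the edgeR fit of all 12 libraries 0 of the 9 passed, as did 0.0% of all genes, although 3 of the 9 and 4254 of all genes had an unadjusted p under 0.05. DESeq2 on all 12 libraries also called 0 of the 9. Groups did not overlap for *Ifit1bl1*, *Ifit2* and *Ifit3*, each higher in niacin, and 31.4% of all genes did not overlap either. *Ifit1bl1* was chosen in part on these WT control libraries. The number of calls in this comparison depended on the fit. With edgeR on only these 2 groups 33.9% of all genes passed and 4 of the 9 did, *Ifit1bl1* (adjusted p = 0.0294), *Ifit2* (0.0246), *Ifit3* (0.00978) and *Ifit3b* (0.0491). DESeq2 on the 2 groups called the same 4 genes and 34.5% of all genes, and limma-voom with quality weights called these and *Ifit1*, with 42.4% of all genes.

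**Figure D3:**
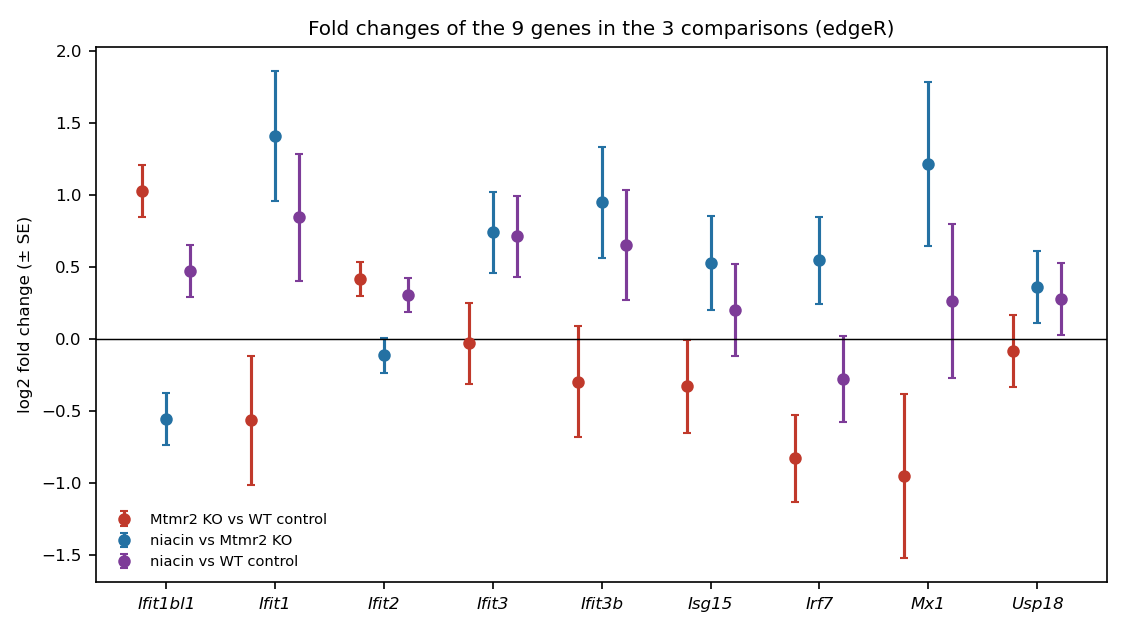
Log2 fold change (y axis) with its SE from the edgeR fit of all 12 libraries for each of the 9 genes (x axis) in the 3 comparisons. *Ifit1bl1* is the only gene with a value above 1 for *Mtmr2* KO against WT control and has a negative value for niacin against *Mtmr2* KO, where *Ifit1* reaches 1.41.

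The ratio of *Ifit1bl1* to other members put the difference within single libraries. The log2 ratio of the CPM of *Ifit1bl1* to that of *Usp18* was −0.21 ± 0.13 in WT control, 0.90 ± 0.28 in *Mtmr2* KO nerves and 0.006 ± 0.35 in niacin (SD, n = 4), and the *Mtmr2* KO libraries (0.61 to 1.24) lay above all others. Against *Ifit1* the same ratio ranged from 0.55 to 1.68 in *Mtmr2* KO, from −1.24 to −0.076 in WT control and from −2.11 to −0.061 in niacin. Against *Ifit2* the ratio of *Mtmr2* KO (−4.02 to −3.13) overlapped that of WT control (−4.38 to −3.88). These ratios contain the contrast that chose *Ifit1bl1* and are given as a description.

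Whether *Ifit1bl1* varied with the other genes among mice of the same group was examined on log2 CPM after subtracting group means, over 12 libraries, with libraries permuted exactly within groups in 13824 ways and 8 correlations adjusted together. Pearson's r was 0.72 with *Ifit3* (p = 0.0503, adjusted p = 0.201, Spearman's rho 0.65 with p = 0.0893) and 0.68 with *Usp18* (p = 0.0248, adjusted p = 0.199, rho 0.56 with p = 0.0726). It was 0.49 with *Ifit3b* (p = 0.331), 0.44 with *Ifit1* (p = 0.188), 0.41 with *Isg15* (p = 0.332), −0.036 with *Mx1* (p = 0.879), −0.20 with *Irf7* (p = 0.593) and −0.43 with *Ifit2* (p = 0.181) in the same exact permutation test. None passed the adjustment. *Ifit1bl2*, outside the set and not tested here, had an r of 0.72 with *Ifit1bl1* and of 0.96 with *Ifit3*. These were 0.40 and 0.88 without replicate 4503.

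Single libraries moved these relations. Without replicate 4503 the r of *Ifit1bl1* was 0.41 with *Ifit3* and 0.40 with *Usp18*, lay between −0.18 and 0.10 with the other 6 genes, and had a median of −0.048 in place of 0.42. Leaving out replicates 4503 and 4502, which were farthest from the median of *Ifit1bl1*, gave 0.38 with *Ifit3* and 0.50 with *Usp18*. Leaving out niacin replicate 4508 gave 0.75 and 0.81, and leaving out both 4503 and 4508 gave 0.48 and 0.64. Without subtraction of group means *Ifit1bl1* had an r of 0.62 with *Ifit2*, −0.62 with *Irf7*, −0.43 with *Mx1* and between −0.15 and 0.12 with the remaining 5, which include the group difference that chose it.

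The other genes except *Ifit2* had positive correlations with each other within groups, of unequal size. For the 7 members other than *Ifit1bl1* and *Ifit2*, all 21 pairs had r above 0, with a median of 0.64 and a range of 0.053 to 0.92, and without replicate 4503 again all 21 were above 0 with a median of 0.60. Over the 8 pairs of each gene, the median r was 0.21 for *Irf7* and 0.37 for *Mx1*, below the 0.42 of *Ifit1bl1*. Without replicate 4503 these medians were 0.53, 0.46 and −0.048. The share of positive pairs over all genes was not computed. The pairs share libraries and scaling, and for *Ifit3* and *Ifit3b* (r = 0.92) also sequence. Single libraries show the same pattern. WT control replicate 4500 was the highest of its group for all 7 of these genes, niacin replicate 4508 was the highest of its group for *Ifit1*, *Ifit3b*, *Isg15*, *Mx1* and *Usp18*, and *Ifit2* had a negative r with all 8 other genes (median −0.55), or with 7 of 8 without replicate 4503 (median −0.31).

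**Figure D4:**
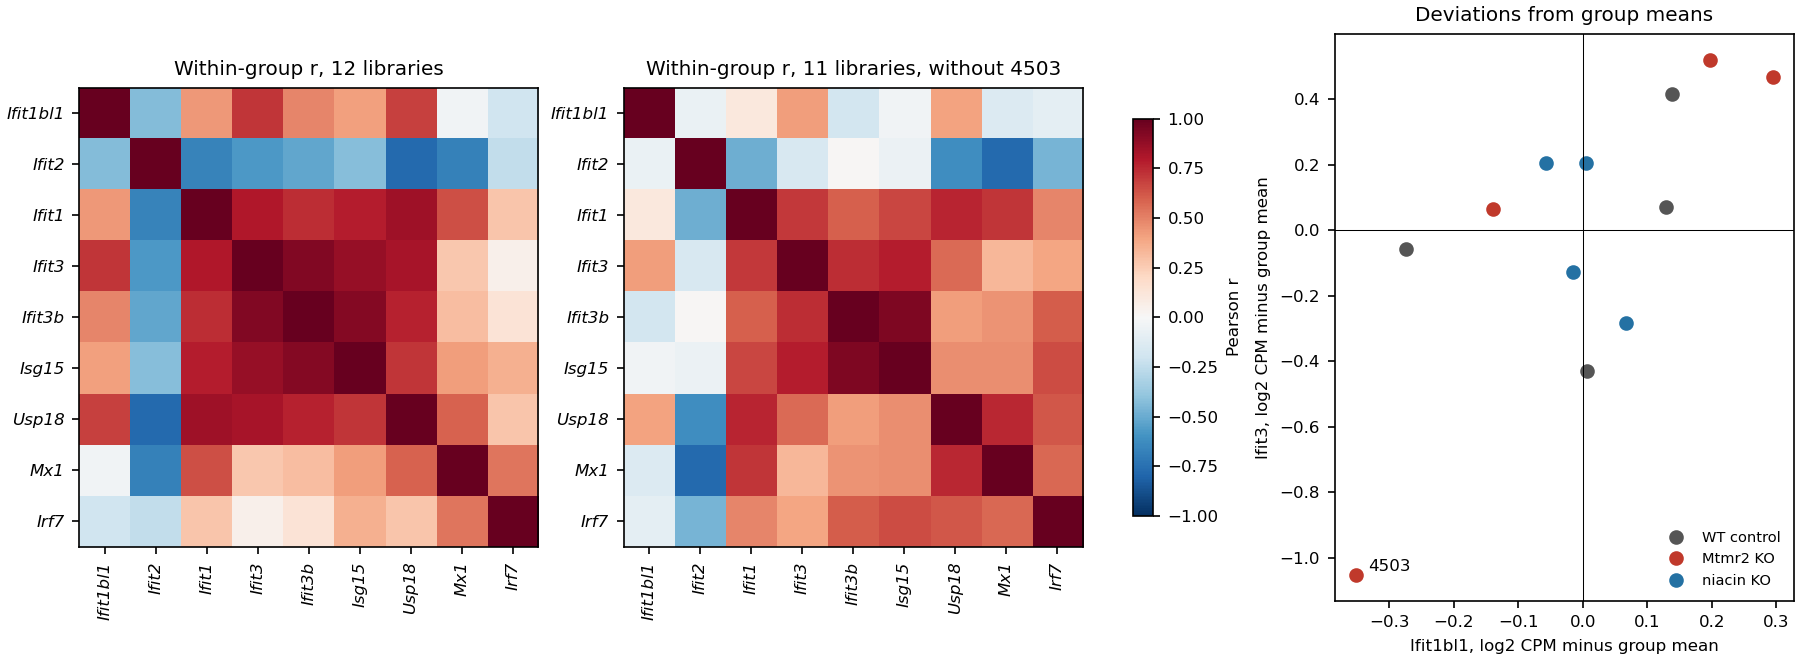
Pearson's r between members after subtraction of group means, as a colour from −1 to 1, over 12 libraries (left) and 11 libraries without replicate 4503 (middle), and the deviations of *Ifit1bl1* (x axis) and *Ifit3* (y axis) from their group means in log2 CPM (right). The row of *Ifit1bl1* pales without replicate 4503, which lies alone at the lower left of the scatter, while the block of the other 7 genes keeps r above 0.

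By likeness over all 12 libraries, the genes with the highest r to *Ifit1bl1* among the 17257 tested were *Chn2* (0.90), *Gm16216* (0.89), *Npm2* (0.88), *Zcchc24* (0.88) and *Atad5* (0.87), and *Ifit2* ranked 662. The genes nearest to the mean z-score of the other 8 members were *Gbp3* (0.95), *Thoc6* (0.94), *Oasl2* (0.94) and *Rtp4* (0.92). *Ifit1bl1* had an r of −0.095 with this score and ranked 9763. Group means were not subtracted here, so the values for *Ifit1bl1* include the group difference that chose it and are a description only. The score ranged from −1.37 in replicate 4503 to 1.22 in niacin replicate 4508.

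The ligands of the pathway were near the limit of detection. Of 21 interferon genes, 9 had 0 counts in all 12 libraries, the 21 together had 107 counts, and none was tested. A count of 0 in a single library, taken alone, allows up to 3 counts in that library by counting error. *Ifng*, the type II interferon, had 44 counts over the 12 libraries and *Ifnk* had 40.

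Receptors and signal carriers gave few calls in edgeR and DESeq2. Of 16 tested, edgeR called 0 in any of the 3 comparisons, and DESeq2 on all libraries called 0, 0 and 1. At an unadjusted p under 0.05 there were 1, 2 and 1, beside 17.2%, 20.1% and 24.7% of all genes. For niacin against WT control, limma-voom called 6 of the 16, beside 42.4% of all genes. In that comparison groups did not overlap for 2 genes higher and 5 lower in niacin, beside 31.4% of all genes. Median log2 fold changes of the 16 were −0.059 for *Mtmr2* KO against WT control, −0.0075 for niacin against *Mtmr2* KO and −0.048 for niacin against WT control. The receptor subunit gene *Ifnar1* was at 103 ± 3.91 CPM in WT control, at 97.3 ± 15.9 CPM in *Mtmr2* KO nerves and at 96.2 ± 6.01 CPM with niacin, and the kinase gene *Jak1* at 135 ± 7.26, 119 ± 4.48 and 139 ± 13.7 CPM (SD, n = 4). Among 14 nucleic acid sensors, which detect foreign RNA or DNA, edgeR called 0 and DESeq2 called 0, 1 and 1. At an unadjusted p under 0.05 there were 2, 4 and 2 in the 3 comparisons, and limma-voom called 0, 2 and 7. Over all genes, limma-voom called 808 of 17257 higher and 1199 lower for niacin against *Mtmr2* KO and 42.4% for niacin against WT control. DESeq2 on all libraries called 6.01% of all genes for niacin against *Mtmr2* KO. For niacin against WT control it called 232 genes higher and 886 lower. *Ddx58*, the gene of the sensor RIG-I, had a log2 fold change of 0.50 ± 0.16 for niacin against *Mtmr2* KO (edgeR adjusted p = 0.116).

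The effector genes outside the set are the nearest to its members in function. Of 46 antiviral effectors tested, 37 had a lower mean in *Mtmr2* KO than in WT control (median log2 fold change −0.19), 38 had a higher mean in niacin than in *Mtmr2* KO (median 0.36) and 32 had a higher mean in niacin than in WT control (median 0.24). The 9 of 46 with a higher mean in *Mtmr2* KO than in WT control became 16 without replicate 4503 (median −0.15). Without that library 37 had a higher mean in niacin than in *Mtmr2* KO (median 0.24) and 32 a higher mean than in WT control (median 0.23). In niacin against *Mtmr2* KO 3 of the 46 rose, beside 0.695% of all genes, *Slfn5* by 0.95 ± 0.19 (edgeR adjusted p = 0.0401), *Ifi203* by 0.85 ± 0.17 (adjusted p = 0.0425) and *Eif2ak2*, the gene of the RNA-activated kinase PKR, by 0.64 ± 0.14 (adjusted p = 0.0467) on the log2 scale. None of the 3 was called without replicate 4503 (adjusted p = 0.0998 to 0.108) or in the edgeR fit of the 2 groups alone, and with 1 library left out their adjusted p ranged up to 0.166. *Slfn5* was at 51.9 ± 3.48 CPM in WT control, at 28.04 ± 8.72 CPM in *Mtmr2* KO nerves and at 54.4 ± 3.73 CPM with niacin.

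The interferon-induced GTPases and the antigen presentation genes gave 0 calls in edgeR. For niacin against *Mtmr2* KO, 2 of 12 and 6 of 12 had an unadjusted p under 0.05, beside 20.1% of all genes. In that comparison DESeq2 on all libraries called 2 and 1, beside 6.01% of all genes. Of 12 GBP and IRG GTPases tested, 10 had a higher mean in niacin than in *Mtmr2* KO (median log2 fold change 0.40) and 11 a higher mean than in WT control (median 0.46), among them *Gbp3* with 0.97 ± 0.25 (edgeR adjusted p = 0.0689) and 0.74 ± 0.25 (adjusted p = 0.122). Without replicate 4503 these were 9 of 12 (median 0.26) and 11 of 12 (median 0.46). Of 12 MHC class I and antigen processing genes, 9 had a lower mean in *Mtmr2* KO than in WT control (median −0.32) and 11 a higher mean in niacin than in *Mtmr2* KO (median 0.42), and without replicate 4503 the medians were −0.31 and 0.28. *H2-D1*, a class I heavy chain gene, was at 396 ± 34.6 CPM in WT control, at 220.2 ± 80.4 CPM in *Mtmr2* KO nerves and at 253 ± 47.8 CPM with niacin, with all WT control libraries above the others.

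Of 5 inhibitors of the pathway, *Socs3* fell under niacin relative to *Mtmr2* KO, by 0.80 on the log2 scale (SE 0.18, edgeR adjusted p = 0.0486), from 23.3 ± 5.75 to 13.4 ± 1.96 CPM. It stood at 17.7 ± 2.61 CPM in WT control, and its adjusted p was 0.120 without replicate 4503. Over the 105 genes of these lists outside the set, edgeR called 0, 4 and 0 in the 3 comparisons, beside 0.267%, 1.43% and 0.0% of all genes. At an unadjusted p under 0.05 there were 16, 33 and 22 of the 105 (15.2%, 31.4% and 21%), beside 17.2%, 20.1% and 24.7% of all genes. The medians were −0.095, 0.24 and 0.17 against 0.033, −0.035 and 0.019 over all genes, and became −0.040, 0.18 and 0.17 without replicate 4503, where edgeR called 0, 0 and 1 of the 105.

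**Figure D5:**
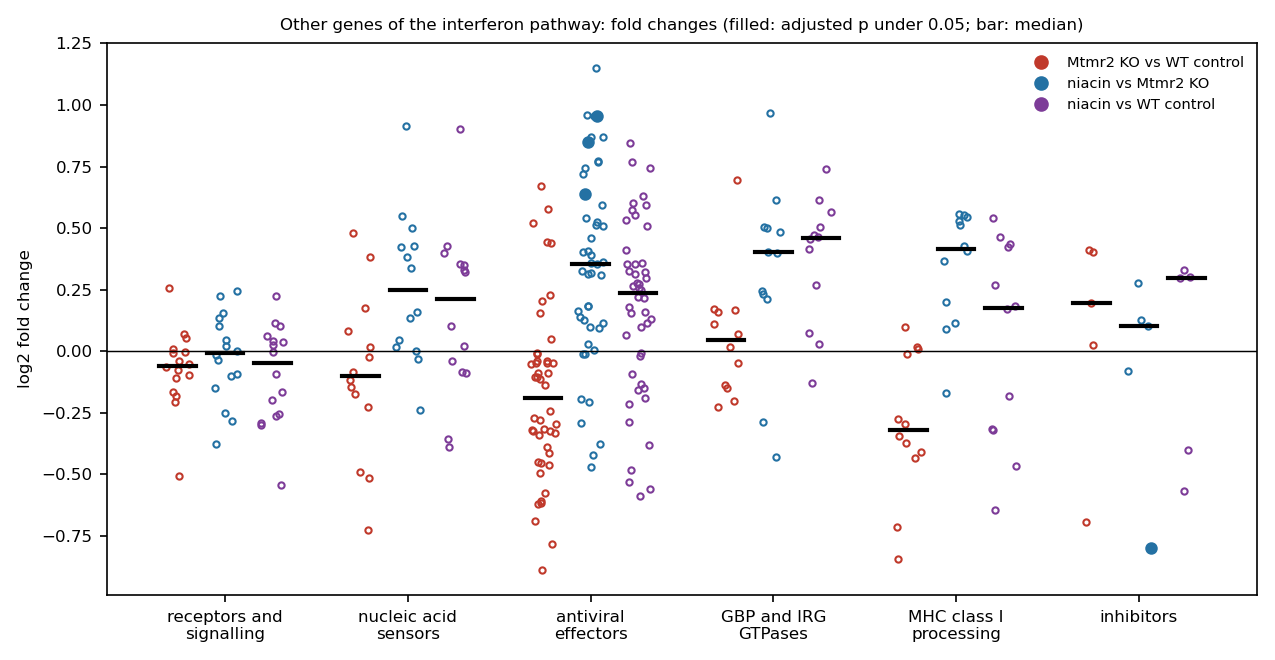
Log2 fold change (y axis) of each of the 105 tested genes in 6 lists of the interferon pathway (x axis) in the 3 comparisons, with filled points for genes at an adjusted p under 0.05 and a black bar for the list median. The medians of effectors, GTPases and antigen presentation genes lie above 0 for niacin against *Mtmr2* KO, and the receptors lie about 0.

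Other cells of the nerve were read from the same libraries. The 10 macrophage markers summed to 467 to 577 CPM in WT control, 438 to 968 CPM in *Mtmr2* KO and 569 to 875 CPM in niacin, and the 5 markers of plasmacytoid dendritic cells, known for high interferon output, to 153 to 186, 131 to 153 and 146 to 191 CPM. Most of the latter sum was *Tcf4*, which many cell types express, at 143 ± 10.6, 124 ± 7.05 and 152 ± 19.5 CPM, whereas *Siglech*, a defining marker of these cells, was at 5.74 ± 0.34, 3.21 ± 2.63 and 6.38 ± 0.62 CPM (SD, n = 4). All 7 adipocyte markers had a lower mean in *Mtmr2* KO than in WT control (median log2 fold change −0.53) and a higher mean in niacin than in *Mtmr2* KO (median 0.69), and their sums were 1403 to 1969 CPM in WT control, 438 to 2163 CPM in *Mtmr2* KO and 1048 to 2302 CPM in niacin. Among them *Lep*, the gene of the fat hormone leptin, fell by 2.03 on the log2 scale in *Mtmr2* KO (edgeR adjusted p = 0.0364) and rose by 1.83 with niacin (adjusted p = 0.0382), and *Plin1*, which coats lipid droplets, fell by 1.84 in *Mtmr2* KO (adjusted p = 0.0448). Without replicate 4503 these 3 values were −1.89, 1.7 and −1.9 and were not called (adjusted p = 0.0633 to 0.0834). The 6 endothelial markers all had a lower mean in *Mtmr2* KO than in WT control (median −0.41, and −0.62 without replicate 4503), and the 8 Schwann cell markers all had a lower mean in niacin than in *Mtmr2* KO (median −0.37, and 7 of 8 lower without replicate 4503). The 6 muscle markers summed to 11.4 to 49.8 CPM in WT control and 9.57 to 45.6 CPM in *Mtmr2* KO. In niacin libraries they summed to 2793 and 2775 CPM in replicates 4506 and 4507 and to 53.2 and 78.2 CPM in replicates 4505 and 4508. Replicate 4508, with few muscle transcripts, had the highest *Ifit1*, *Ifit3b*, *Isg15*, *Mx1* and *Usp18* of all 4 niacin libraries. The part of any of these cell types in the levels of the 9 genes was not tested.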

How the data were processed

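Sciatic nerve RNA of 12 mice (4 WT control, 4 *Mtmr2* KO, 4 niacin-treated *Mtmr2* KO) was sequenced after poly(A) selection as paired reads. Groups and replicate numbers came from the sample labels. With STAR the authors aligned reads to GRCm38, and the deposited counts are whole, unnormalized numbers of reads for each Ensembl gene. Versions, the counting program and its use of strand were not stated, so reads of *Irf7*, *Usp18* and genes overlapping them cannot be told apart. The authors' deposited tables of 3 comparisons hold DESeq2 fold changes and p-values, of which only the gene symbols were used.

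The members, lists and tests were chosen with earlier results of these data known. The tests ran in edgeR 4.0.16 (R 4.3.3). The filter was filterByExpr, scaling TMM, and 1 quasi-likelihood model held all 12 libraries. Calls needed a Benjamini-Hochberg adjusted p under 0.05 over 17257 genes. The model was tested on simulated data. CPM and log2 CPM (prior count 2) were computed from the deposited counts with TMM factors. CPM per kb divides by the exon length of GENCODE release 21. Exact permutation tests were two-sided over all 70 ways to draw 4 of 8 libraries, and no exact p under 0.0286 can be reached. Alternatives were DESeq2 1.42.0, limma-voom 3.58.1 with quality weights, DESeq2's size factors, 2-group fits, 2 other filters (none, or at least 10 counts in every library), *Xist* as a covariate and each library left out. Intervals on counts cover counting error only.

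Named genes were the 9 members, *Mtmr2*, the 3 most abundant and up to 5 called genes of each list (not all are described), genes within 100 kb of *Ifit1bl1* and the 5 nearest in pattern, of which 1 is not reported here.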

Additional observations from a re-analysis of the deposited data

Results flagged for a closer look

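Among 27 groups of 4 libraries (9 genes in 3 groups), a single library stood far from the other 3 in 2 groups, and chance alone gives about 1 such group in 20. Both concern *Irf7*. WT control replicate 4500 had 11.9 CPM of *Irf7* against 4.85 to 6.06 CPM in the other 3, a gap of 0.83 of the range of the group. Niacin replicate 4505 had 3.91 CPM against 6.43 to 6.75 CPM, a gap of 0.887 of the range.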

How the results depend on the processing

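The number of the 9 genes called for *Mtmr2* KO against WT control was 1 and became 0 with edgeR on only the 2 groups compared and with *Xist* as a covariate, and it ranged from 0 to 1 with 1 library left out. It was 0 without each WT control library and without niacin replicates 4506, 4507 and 4508. For niacin against *Mtmr2* KO it was 0 and became 1 with DESeq2 on all 12 libraries, DESeq2 on the 2 groups and no filter, and 0 to 2 with 1 library left out (2 without *Mtmr2* KO replicate 4502). For niacin against WT control it was 0 and became 4 with DESeq2 or edgeR on the 2 groups and 5 with limma-voom. With 1 library left out it stayed at 0.

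Of the 105 other interferon genes, calls for *Mtmr2* KO against WT control went from 0 to 6 with DESeq2 on all libraries, 4 with DESeq2 on the 2 groups, 2 with no filter and 1 with limma-voom, and ranged from 0 to 4 with 1 library left out (4 without *Mtmr2* KO replicate 4501). For niacin against *Mtmr2* KO they went from 4 to 12 with DESeq2 on all libraries, 19 with limma-voom, 0 with edgeR on the 2 groups and 1 with *Xist* as a covariate, and ranged from 0 to 32 with 1 library left out (32 without *Mtmr2* KO replicate 4502). For niacin against WT control they went from 0 to 3 with DESeq2 on all libraries, 28 and 26 with DESeq2 and edgeR on the 2 groups and 47 with limma-voom, and ranged from 0 to 16 with 1 library left out (16 without *Mtmr2* KO replicate 4502). Over all genes, niacin against WT control gave calls for 34.5% and 33.9% with DESeq2 and edgeR on the 2 groups, and 42.4% with limma-voom. Without replicate 4502, edgeR called 1576 of 17716 higher and 2250 lower. For niacin against *Mtmr2* KO, DESeq2 on all libraries called 6.01% and edgeR without replicate 4502 called 23.6%. Limma-voom called 808 of 17257 higher and 1199 lower. For *Mtmr2* KO against WT control, edgeR without replicate 4501 called 202 of 17564 higher and 255 lower. In that comparison DESeq2 called 263 genes higher and 394 lower on all libraries, and 134 higher and 302 lower on the 2 groups. EdgeR with no filter called 107 of 33882 higher and 234 lower, and limma-voom 9 of 17257 higher and 99 lower. For niacin against WT control, DESeq2 on all libraries called 232 genes higher and 886 lower. The cause of these changes was not tested.

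The median within-group correlation of *Ifit1bl1* with the other genes was 0.42 and became −0.088 without subtraction of group means, and −0.048 without *Mtmr2* KO replicate 4503. Of the 27 fold changes of the 9 genes, 5 changed sign under some alternative. For *Mtmr2* KO against WT control, that of *Ifit3* was −0.027 and became 0.038 with limma-voom, 0.010 with *Xist* as a covariate, 0.12 without WT control replicate 4500 and 0.22 without *Mtmr2* KO replicate 4503. That of *Ifit3b* was −0.30 and became 0.023 without replicate 4503, and that of *Usp18* was −0.081 and became 0.081 with limma-voom, 0.025 without replicate 4500 and 0.11 without replicate 4503. That of *Irf7* for niacin against WT control was −0.28 and became 0.074 without WT control replicate 4500 (range −0.43 to 0.074 with 1 library left out), and that of *Mx1* was 0.26 and became −0.64 without niacin replicate 4508 (range −0.64 to 0.56).

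No paired analysis was possible because the groups share no replicate number. With 4 libraries per group and 5 to 52 counts of *Mx1* per library, a log2 fold change of 1.21 (SE 0.57) in *Mx1* was not called.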
